A study of Homo sapiens with 12 samples.

Results

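Chemokines are small secreted proteins that attract leukocytes, and 10 of their genes were followed here in WM-266-4, a human melanoma cell line. The genes were CXCL9, CXCL10, CXCL11, CCL5, CXCL8, CXCL1, CXCL2, CXCL3, CCL2 and CCL20, out of 35559 genes to which transcripts were assigned. They were chosen by name, as chemokines known to be induced by interferon or by inflammatory signals, after the group levels of these libraries had been seen. Their differences from control are therefore a description, and the counts of genes called below carry no evidence of their own.

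The 12 libraries came from 3 experiments with 4 groups each, 1 library of each group per experiment. In every group, controls included, endogenous TYRO3 was knocked down with a stable lentiviral shRNA and the cells were selected with puromycin. TYRO3 is a receptor tyrosine kinase of the TAM family. On that background the cells were transfected with a pEZY-myc-his plasmid for GFP (control), for wild-type TYRO3 (WT), for TYRO3 ΔGS (I449A), designed to resist gamma-secretase, or for TYRO3 ΔADAM (P408A/L409P/G419P), designed to resist ADAM proteases. Cells were starved of serum overnight before RNA was taken. The comparison of GFP with the TYRO3 forms asks what the receptor does to transcription, and the comparison among the forms asks whether its proteolysis matters. The TYRO3 forms were expressed from a plasmid far above the control level: TYRO3 stood at 47.2 to 54.4 CPM (counts scaled to a common library total) in the GFP libraries and at 1190 to 3700 CPM in the others.

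Totals ranged from 4008293 estimated counts in the GFP library of experiment 1 to 38184838, with a median of 23302001 and 18365999 in the second shallowest library. The shallow library was a control, so every ratio within experiment 1 rests on few control reads (5 counts for CXCL10). The melanocyte markers PMEL, MLANA, TYR, DCT, SOX10 and MITF were all detected above 1 TPM (counts scaled by transcript length and library). Their summed level was 1560 to 1890 TPM in GFP libraries and 1020 to 1890 TPM in TYRO3 libraries. Among the 8 leukocyte markers, PTPRC stayed at or below 0.562 TPM and CD3E at or below 0.11 TPM. CD68, a lysosomal glycoprotein gene, accounted for most of the leukocyte list with 31.7 to 52.6 TPM. The list summed to 44.4 to 49.5 TPM in GFP libraries and to 35.9 to 60.5 TPM in TYRO3 libraries. The 3 endothelial markers stayed at or below 1.82 TPM in sum, and the 3 fibroblast markers summed to 71.7 to 92.7 TPM with GFP and 45.2 to 73.4 TPM with TYRO3. The 3 epithelial markers stayed at or below 5.35 TPM in sum.

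The members fall into families by structure and receptor. CXCL9, CXCL10 and CXCL11 bind CXCR3, attract activated T cells and NK cells, and are classical targets of interferon signalling. CXCL8 (interleukin 8), CXCL1, CXCL2 and CXCL3 carry the ELR motif, bind CXCR2 on neutrophils, and are induced through NF-kB and AP-1. CCL5 attracts T cells and monocytes, CCL2 binds CCR2 on monocytes, and CCL20 binds CCR6. Tumor cells, melanoma included, can secrete several of these proteins. In bulk RNA, a change in all cells and a change in a transfected fraction cannot be told apart.

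Of the 10 genes, 7 (CXCL10, CXCL11, CXCL9, CCL5, CXCL8, CXCL1 and CXCL3) were higher in all 9 TYRO3 libraries than in the GFP library of the same experiment, whichever TYRO3 form was expressed. Over all 15090 genes tested, 16.4% showed that pattern. CXCL9 passed the count filter only through the TYRO3 groups, so its place among the 7 is not used as support. CXCL2 was higher in 8 of 9, CCL2 in 6 of 9 and CCL20 in 4 of 9 libraries.

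**Figure D1:**
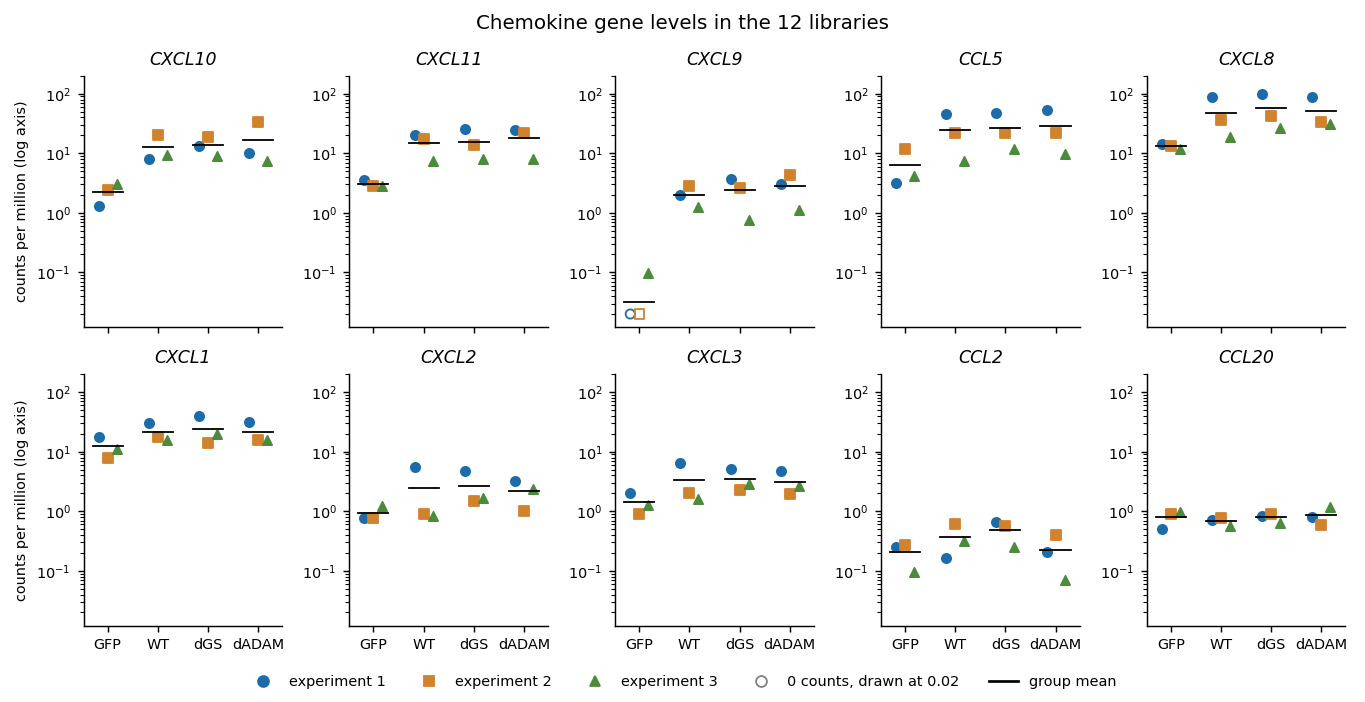
Level of each chemokine gene in each library, in CPM on a log axis. Each point is 1 library, marked by experiment, and the bar is the mean of the 3 libraries of a group (dGS is ΔGS and dADAM is ΔADAM). All 9 TYRO3 libraries lie above all 3 GFP libraries for CXCL10, CXCL11, CXCL9 and CXCL8, while CCL20 stays between 0.51 and 1.20 in all 12.

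CXCL10 measured 1.28, 2.42 and 3.01 CPM in the GFP libraries of experiments 1, 2 and 3. With WT TYRO3 it measured 8.08, 20.1 and 9.41 CPM, with ΔGS 13.2, 19.1 and 8.92 CPM, and with ΔADAM 10.1, 33.5 and 7.32 CPM. The lowest TYRO3 library was above the highest GFP library, and experiment 2 held the highest value in each TYRO3 group. Within experiments, CXCL10 was 2.43 to 13.8 times the control level, with a median of 7.89 over 9 libraries. The fitted log2 fold difference of the mean of the 3 TYRO3 groups from GFP was 2.59 ± 0.53 (SE, 3 libraries per group).

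CXCL11 measured 3.58, 2.82 and 2.77 CPM in the GFP libraries, a narrow range. It measured 20.2, 17.6 and 7.50 CPM with WT, 25.3, 13.8 and 7.90 CPM with ΔGS, and 24.3, 21.7 and 8.10 CPM with ΔADAM. The groups did not overlap with GFP, and experiment 3 was the lowest in each TYRO3 group. Within experiments CXCL11 was 2.71 to 7.69 times the control level, and the fitted log2 fold difference was 2.23 ± 0.38.

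CXCL9 was nearly absent from the controls, with 0, 0 and 2 counts in the GFP libraries of experiments 1, 2 and 3. With WT TYRO3 it measured 1.99, 2.85 and 1.24 CPM, with ΔGS 3.76, 2.61 and 0.77 CPM, and with ΔADAM 3.04, 4.32 and 1.13 CPM. The measured level of every TYRO3 library was above that of the controls, and CXCL9 was the lowest of the 3 CXCR3 ligands throughout. The floor of 3 counts in the GFP library of experiment 1 is 0.768 CPM, about the level measured in the ΔGS library of experiment 3. Against a floor of 3 counts for a GFP library at 0, CXCL9 was at least 2.6-fold higher in experiment 1 and at least 32.4-fold higher in experiment 2. The same floor is a higher level in the shallow library of experiment 1 than in that of experiment 2. Summed over experiments, the ratio to GFP was 60.6 for WT (95% counting interval 16.4 to 507.0), 73.2 for ΔGS (19.9 to 609.0) and 84.3 for ΔADAM (23.1 to 700.0). All of these rest on the same 2 GFP counts, and their intervals overlap. Intervals and floors here cover counting error only. CXCL9 passed the count filter only through the TYRO3 groups, in which all 9 libraries reached the filter's 0.44 CPM against 0 of the 3 GFP libraries. Its fitted difference therefore depends on the prior count and is not used as a size.

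The 3 CXCR3 ligands lie side by side on chromosome 4 (GRCh38), all on the minus strand: CXCL9 at chr4:76001275-76007488, CXCL10 at chr4:76021117-76023497 and CXCL11 at chr4:76033682-76041415. After the mean of each experiment was subtracted, their log2 levels correlated with Pearson's r of 0.98 to 0.99 over 12 libraries, which share depth and controls. Group means were not removed, so these values include the difference between GFP and TYRO3, and CXCL9 had 0, 0 and 2 counts in the controls. The upstream sequences of CXCL10 and CXCL9 are shown because each holds a match to the interferon-stimulated response element (ISRE), searched on both strands as GAAANNGAAA. They are the 250 bases before the RefSeq start site (GRCh38.p14), on the minus strand at chr4:76023498-76023747 for CXCL10 and chr4:76007510-76007759 for CXCL9. Capitals mark the ISRE match and, in CXCL10 further downstream, a pair of matches to the NF-kB consensus.
CXCL10: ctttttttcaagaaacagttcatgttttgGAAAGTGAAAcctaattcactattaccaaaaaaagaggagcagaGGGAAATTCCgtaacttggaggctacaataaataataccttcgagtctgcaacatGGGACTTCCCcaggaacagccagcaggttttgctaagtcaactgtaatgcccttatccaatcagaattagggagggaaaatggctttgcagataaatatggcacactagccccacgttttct
CXCL9: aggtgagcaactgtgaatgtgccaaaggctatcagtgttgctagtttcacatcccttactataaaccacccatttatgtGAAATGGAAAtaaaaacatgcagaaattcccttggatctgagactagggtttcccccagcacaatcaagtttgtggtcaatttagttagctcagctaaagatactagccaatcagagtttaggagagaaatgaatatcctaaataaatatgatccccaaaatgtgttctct
The ISRE match begins at base -221 in CXCL10 and at base -171 in CXCL9, counted from the start site. CXCL11 held no ISRE match in this window but an AP-1 match (TGANTCA) at base -87 followed by an NF-kB match at base -76. These are in capitals in the 30 bases at chr4:76036133-76036162, minus strand.
CXCL11: gtgcaTGACTCAaagaGGGAAATTCCtgtg
Of the 35116 RefSeq promoters, 3.02% held an ISRE match in the same window, 8.04% an NF-kB consensus match and 6.57% an AP-1 match. A match is a description of the letters and was not tested as a binding site.

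CCL5 (minus strand, chr17:35871491-35880793) measured 3.12, 11.6 and 4.15 CPM in the GFP libraries. It measured 45.9, 21.7 and 7.29 CPM with WT, 47.6, 21.8 and 11.6 CPM with ΔGS, and 53.8, 22.0 and 9.57 CPM with ΔADAM. The TYRO3 libraries of experiment 3 overlapped with the GFP library of experiment 2, so the groups overlap although each experiment by itself shows a higher value with TYRO3. The ratio to the control of the same experiment was 14.7 to 17.3 in experiment 1, 1.87 to 1.89 in experiment 2 and 1.76 to 2.8 in experiment 3. The fitted log2 fold difference was 1.41 ± 0.53, and the gene was called with a term per experiment but not without it, unless the filter on low counts was dropped. The difference was 0.93 without the GFP library of experiment 1 and 2.45 without that of experiment 2. Of the 31-base words in the transcript that took 96.9% of CCL5 counts, 27.7% also occur in transcripts of other genes, so part of the signal could have been shared among genes by the quantification.

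CXCL8 (plus strand, chr4:73740506-73743716) had the most even controls, with 14.6, 13.4 and 11.9 CPM in the GFP libraries. It measured 89.1, 36.7 and 19.1 CPM with WT, 101.0, 42.2 and 26.6 CPM with ΔGS, and 86.8, 34.2 and 31.2 CPM with ΔADAM. All 9 values lay above the controls, and experiment 1 held the highest value in each TYRO3 group. The ratio within experiments was 1.61 to 6.96, with a median of 2.74, and the fitted log2 fold difference was 1.59 ± 0.27. Its upstream sequence from base -160 to base -64 (chr4:73740409-73740505, plus strand) is shown because it holds an AP-1 match at base -137 and, at base -91, a match to a shorter NF-kB-like motif, GGAANTTCC. The shorter motif was added after the longer consensus was not found in this window.
CXCL8: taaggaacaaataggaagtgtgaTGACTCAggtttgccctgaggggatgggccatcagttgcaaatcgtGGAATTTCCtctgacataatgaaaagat
The shorter motif was held by 0.826% of all promoters and by 6 of the 8 members in the promoter table. Apart from CXCL8, these were CXCL10, CXCL11, CXCL1, CXCL2 and CXCL3, where it lies inside the NF-kB consensus match. CCL5 and CCL2 had no entry in the table.

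CXCL1 (plus strand, chr4:73869393-73871242) measured 17.9, 7.79 and 11.1 CPM in the GFP libraries. It measured 30.8, 17.5 and 15.8 CPM with WT, 39.2, 13.9 and 19.8 CPM with ΔGS, and 32.0, 15.7 and 15.8 CPM with ΔADAM. The groups overlapped because the level in experiment 1 was high in controls too, but the ratio within experiments was steady, at 1.42 to 2.25. The fitted log2 fold difference, 0.79 ± 0.15, was the smallest of the members called.

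CXCL3 (minus strand, chr4:74036589-74038807) measured 2.05, 0.91 and 1.26 CPM in the GFP libraries. It measured 6.47, 2.01 and 1.60 CPM with WT, 5.11, 2.28 and 2.91 CPM with ΔGS, and 4.84, 1.93 and 2.71 CPM with ΔADAM. The ratio within experiments was 1.26 to 3.16 and the fitted log2 fold difference 1.10 ± 0.25. CXCL2 (minus strand, chr4:74097035-74099293) was lower and less regular, with 0.77, 0.78 and 1.21 CPM in the GFP libraries. It measured 5.64, 0.90 and 0.84 CPM with WT, 4.77, 1.47 and 1.66 CPM with ΔGS, and 3.26, 0.99 and 2.36 CPM with ΔADAM. The ratio was 4.21 to 7.29 in experiment 1, 1.15 to 1.88 in experiment 2 and 0.694 to 1.94 in experiment 3. Its fitted log2 fold difference of 0.82 ± 0.44 was not called in either fit.

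CXCL1, CXCL2 and CXCL3 are close paralogs, and reads from them are partly interchangeable. In the GENCODE 29 transcripts, 14.4% of the 31-base words of CXCL1, 22.4% of those of CXCL2 and 9.54% of those of CXCL3 occur in another gene, mostly in one another. Part of their signal could therefore have been shared among the genes by the quantification. These are shares of words, not errors of the levels, which were not measured. The 30 bases around their NF-kB match are shown because they are almost the same in the 3 genes, with 29 of 30 bases shared by CXCL1 and CXCL2 and 30 of 30 by CXCL2 and CXCL3. CCL20 is set beside them because its match, on the minus strand only relative to the gene, differs in letters. The windows are chr4:73869302-73869331 (plus strand), chr4:74099256-74099285 (minus), chr4:74038751-74038780 (minus) and chr2:227813751-227813780 (plus). In GENCODE 29, the windows of CXCL2 and CXCL3, like that of CXCL11, lie in an exon of 1 transcript of the gene. That transcript took 87.6% of the counts of CXCL2, 33.1% of those of CXCL3 and 99.6% of those of CXCL11. The window of CCL20 lies within the gene but in no exon, and those of the other members shown lie before the gene. Capitals mark 2 overlapping matches in CXCL1, CXCL2 and CXCL3, 1 on each strand, and the 1 match in CCL20.
CXCL1: atctggaactccGGGAATTTCCCtggcccg
CXCL2: atctggagctccGGGAATTTCCCtggcccg
CXCL3: atctggagctccGGGAATTTCCCtggcccg
CCL20: gttgatcaatggGGAAAACCCCatgtggca

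CCL2 and CCL20 stayed low. CCL2 (plus strand, chr17:34255218-34257203) had 1 to 15 counts per library, with means of 0.504 TPM with GFP, 0.938 TPM with WT, 1.23 TPM with ΔGS and 0.559 TPM with ΔADAM. It reached the filter's 0.44 CPM in 1 WT and 2 ΔGS libraries and in no other, and its fitted log2 fold difference of 0.70 ± 0.64 had a 95% confidence interval of -0.70 to 2.10. It was 0.34 without the GFP library of experiment 3 and 1.31 without that of experiment 2. CCL20 (plus strand, chr2:227805739-227817564) had 0.51 to 1.20 CPM in all libraries and a fitted log2 fold difference of -0.19 ± 0.30 (95% confidence interval -0.84 to 0.46). Neither gene separated any TYRO3 group from GFP.

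**Figure D2:**
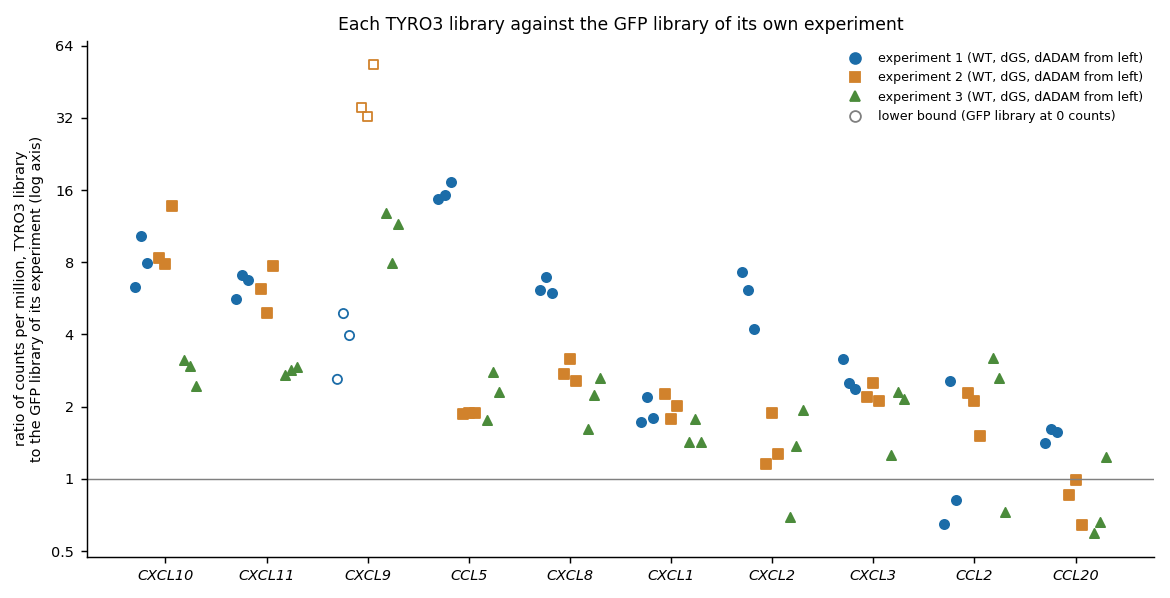
Ratio of the CPM level in each TYRO3 library to the GFP library of the same experiment, on a log axis. Each point is 1 library. Open points are lower bounds, computed against 3 counts where the GFP library had 0. The ratios of CCL5 are 14.7 to 17.3 in experiment 1, on 12 control counts, and 1.76 to 2.8 in the other experiments. Those of CXCL1 lie between 1.42 and 2.25 in all 3.

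Levels can be compared between genes on the TPM scale, which accounts for length. With GFP, CXCL1 was the most abundant of the 10 (mean 19.4 TPM, range 13.2 to 26.6), followed by CXCL8 (13.6 TPM, 12.3 to 14.6) and CCL5 (9.48 TPM, 5.76 to 16.9), and the ranges of CXCL1 and CXCL8 and of CXCL8 and CCL5 overlapped. CXCL11 (3.76 TPM), CXCL10 (3.23 TPM), CCL20 (2.44 TPM), CXCL3 (2.07 TPM) and CXCL2 (1.73 TPM) followed, each overlapping with the next, and CXCL11, at 4.88 TPM at most, did not reach the range of CCL5. CCL2 (0.504 TPM) and CXCL9 (0.0188 TPM) stood apart below them. With TYRO3, CXCL8 came to the top (54.8 TPM over 9 libraries, 21.0 to 106.0), ahead of CCL5 (39.5 TPM, 10.4 to 77.6), CXCL1 (37.0 TPM, 23.4 to 64.2), CXCL10 (21.3 TPM, 10.8 to 49.1) and CXCL11 (16.9 TPM, 7.44 to 26.1). No neighbours in that order were separated beyond their ranges, which pool experiments of different level. The order also varied by library: in experiment 3 CXCL1 stood above CXCL8 with WT (26.5 against 21.0 TPM) and with ΔGS (29.7 against 25.3 TPM), and in experiment 2 CXCL10 was the highest with ΔADAM (49.1 TPM).

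The sum of the 10 genes was 52.1 to 58.6 TPM in the GFP libraries. Its parts differed there, with 7.58, 21.0 and 8.66 TPM for the CC genes and 44.5, 30.4 and 35.6 TPM for the ELR genes in experiments 1, 2 and 3. In the TYRO3 libraries it was 270.0 to 307.0 TPM in experiment 1, 160.0 to 177.0 TPM in experiment 2 and 88.1 to 105.0 TPM in experiment 3. The make-up of the sum also differed. In experiment 1 the ELR chemokines gave 160.0 to 186.0 TPM and the CXCR3 ligands 34.0 to 47.5 TPM, and in experiment 2 they gave 68.7 to 75.8 TPM and 44.9 to 74.1 TPM. The CC genes gave 71.7 to 80.8 TPM in experiment 1, 33.9 to 39.2 TPM in experiment 2 and 13.7 to 18.1 TPM in experiment 3. Transfected TYRO3 itself was at 3090 to 3700 CPM in experiment 1 and at 1190 to 1810 CPM in the other experiments. Its part in the difference between experiments was not tested, nor was the difference between experiments itself.

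**Figure D3:**
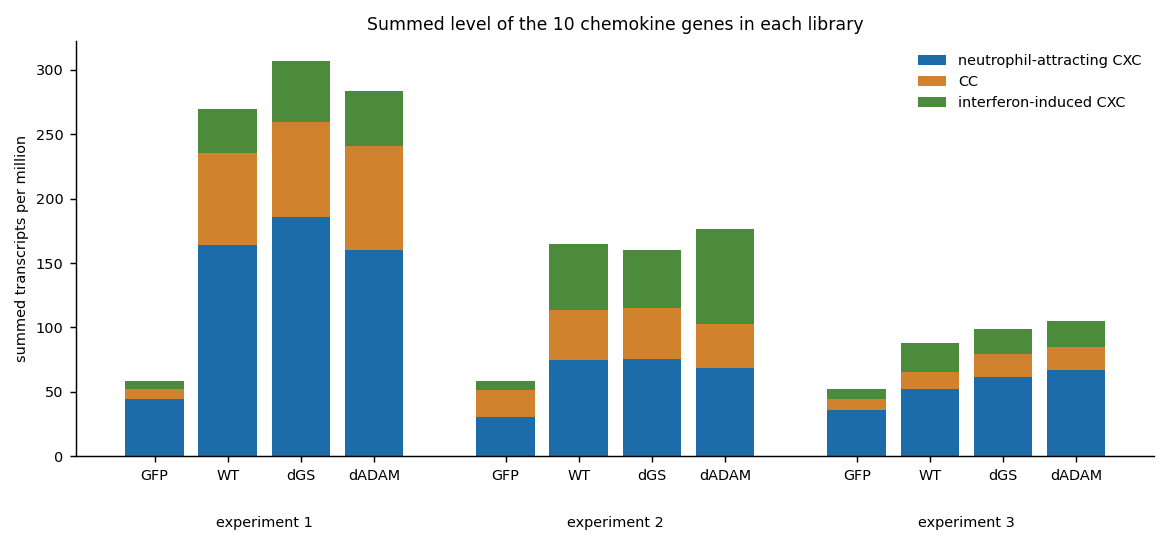
Summed level of the 10 chemokine genes in each library, in TPM, split into the ELR genes CXCL8, CXCL1, CXCL2 and CXCL3 (neutrophil-attracting CXC), the genes CCL5, CCL2 and CCL20 (CC) and the CXCR3 ligands CXCL9, CXCL10 and CXCL11 (interferon-induced CXC). The GFP bars are 52.1 to 58.6 in all experiments and the TYRO3 bars are highest in experiment 1.

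A gene was called where its fold difference exceeded 1.5 and its adjusted p did not exceed 0.05 in the quasi-likelihood test of edgeR, fitted on all 15090 genes that passed the count filter. For the mean of the 3 TYRO3 groups against GFP, 6 of the 10 members were called, all higher (CXCL10, CXCL11, CXCL9, CXCL8, CXCL1 and CXCL3), beside 1.79% of all genes called higher. For ΔADAM against GFP, 4 were called (CXCL10, CXCL11, CXCL9 and CXCL8), beside 0.636% of all genes, and for ΔGS against GFP 2 (CXCL9 and CXCL8), beside 0.278%. CXCL9, in each of these counts, passed the filter only through the TYRO3 groups, so its calls are not used as support. For WT against GFP 0 were called in edgeR, beside 0.0398% of all genes. Of the members, 6 had an unadjusted p under 0.05 there, and DESeq2 called 5. The median fitted log2 difference of the 10 members from GFP was 1.26 for the mean of the 3 groups, against -0.00183 over all genes.

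The experiment number pairs the libraries, and a term for each experiment in the model raised the counts. With that replicate block, 5 members were called for WT, 7 for ΔGS, 7 for ΔADAM and 7 for the mean of the groups. The 7 were CXCL10, CXCL11, CXCL9, CCL5, CXCL8, CXCL1 and CXCL3, and for WT CCL5 and CXCL3 dropped out. Calls over all genes rose as well, to 1.67%, 2.82%, 3.15% and 3.51% called higher. All libraries of a group lay above all GFP libraries in 4 members with WT (13.4% of all genes), 6 with ΔGS (13.4%), 4 with ΔADAM (15.8%) and 4 with all 9 TYRO3 libraries together (6.55%). The 4 were CXCL10, CXCL11, CXCL9 and CXCL8 each time, and CXCL2 and CXCL3 joined them with ΔGS. The limit on CXCL9, which passed the filter only through the TYRO3 groups, holds for all counts of this paragraph.

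The calls changed when a control library was left out. Without the GFP library of experiment 1, 0 of the 10 members were called in any comparison in the fit without a term per experiment. Only 0.00653% of all genes were called in each comparison with GFP there, so the loss was not particular to the members. With a term per experiment and without the same library, 4 were called for WT, 6 for ΔGS, 5 for ΔADAM and 6 for the mean of the groups. CXCL11, CXCL9, CXCL8 and CCL5 were among them each time, and 0.986%, 1.76%, 1.87% and 2.53% of all genes were called. The limit on CXCL9 named above holds for all counts of this paragraph as well. In the fit without the term, 2 members (CXCL11 and CXCL8) were called for the mean of the groups without the GFP library of experiment 2, beside 1.86% of all genes. Without that of experiment 3, 4 were called (CXCL1, CXCL11, CXCL8 and CXCL9), beside 1.54%. For ΔGS and for ΔADAM against GFP, 0 were called in that fit without any 1 of the GFP or ΔGS libraries of experiments 1 and 2, without the GFP library of experiment 3 or without the ΔADAM library of experiment 1. The shares of all genes called were 0.00653% to 0.268% in these fits. For ΔGS 0 were called without its own library of experiment 3 (0.0783% of all genes) or the WT library of experiment 2 (0.0779%). For ΔADAM 0 were called without its own library of experiment 3 (0.00653%), and 2 without the WT (0.35%) or the ΔADAM (1.73%) library of experiment 2.

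The 3 TYRO3 forms were not separated by any chemokine gene. In all 10 members the libraries of WT overlapped with those of ΔGS and ΔADAM, and those of ΔGS overlapped with those of ΔADAM. Over all genes, 0.603% and 2.35% did not overlap in these comparisons. In edgeR 0 members and 0.0% of all genes were called between WT and the mean of the cleavage-resistant forms, and the same held between ΔGS and ΔADAM. At an unadjusted p under 0.05, 0 members and 118 genes in all passed in the former comparison and 0 members and 119 genes in the latter, and DESeq2 called 1 gene in each. The log2 difference of WT from the mean of ΔGS and ΔADAM was -0.31 ± 0.43 for CXCL10 (95% interval -1.25 to 0.63). It was -0.12 ± 0.32 for CXCL11 (-0.83 to 0.59), -0.19 ± 0.25 for CXCL8 (-0.74 to 0.35) and -0.05 ± 0.15 for CXCL1 (-0.38 to 0.28). For ΔGS against ΔADAM the differences were -0.20 ± 0.48 for CXCL10, 0.14 ± 0.28 for CXCL8 and 0.19 ± 0.17 for CXCL1 (-0.19 to 0.56). For CCL5 the interval of this comparison was -1.24 to 1.23, and -0.71 to 0.76 with a term per experiment. The widest difference was that of CCL2, at 1.17 ± 0.63 (-0.22 to 2.56), on few counts. With a term per experiment it was 1.19 ± 0.48 (0.13 to 2.26), and CCL2 was then the 1 member with an unadjusted p under 0.05 in this comparison, without being called.

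**Figure D4:**
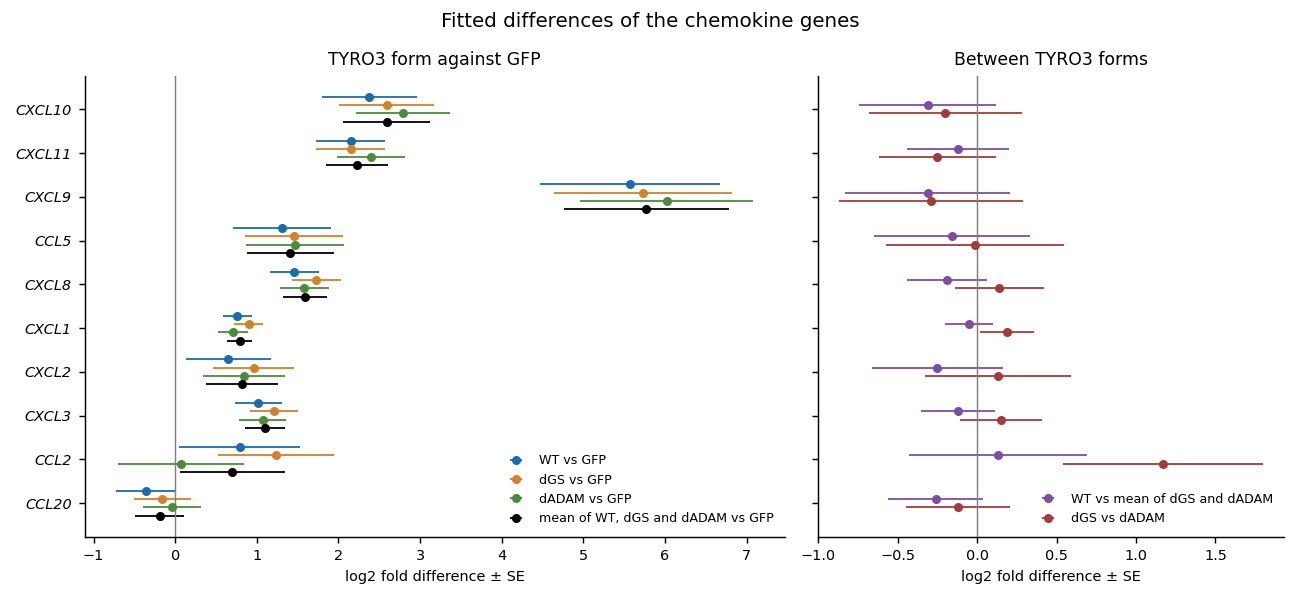
Fitted log2 fold difference of each chemokine gene with its standard error, from the edgeR model with 4 groups of 3 libraries. On the left each TYRO3 form and their mean are set against GFP, and on the right the forms are set against each other. On the left the points of CXCL10, CXCL11 and CXCL8 lie above 1 for every form and that of CXCL9 depends on the prior count, while on the right the differences are within 1 log2 unit of 0 for all genes but CCL2.

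Over all libraries, most of the counts of a gene were on a single transcript. A protein-coding transcript took 99.6% of the counts of CXCL11 and no less of those of CXCL10 and CXCL9, and such transcripts took 97.7% for CXCL8, 96.9% for CCL5 and 96.1% for CXCL1. CXCL3 was split, with 62.5% on a protein-coding transcript and 33.1% on a longer one not annotated as coding. The coding one had a mean of 0.849 ± 0.351 TPM with GFP and 3.33 ± 2.88, 3.76 ± 2.15 and 3.26 ± 2.03 TPM with WT, ΔGS and ΔADAM (SD, n = 3). The longer one had 0.606 ± 0.292 TPM with GFP and 1.13 ± 1.12, 1.01 ± 0.222 and 1.12 ± 0.35 TPM. For CCL20, 40.1% of the counts were on a transcript not annotated as coding.

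Between members, correlations of experiment-centred log2 levels over 12 libraries varied widely. CXCL8 correlated with CCL5 and with CXCL3 at r = 0.95, and with CXCL10 at r = 0.87. CXCL1 had r of 0.92 to 0.95 with the CXCR3 ligands, 0.89 with CXCL8, 0.85 with CXCL3 and 0.61 with CXCL2. CXCL2 had 3 counts in the GFP library of experiment 1. CCL20 was between -0.23 and 0.56 with all others. Of 13252 other genes with a mean of at least 1 CPM, the 3 most like CXCL10 were STAT2 (r = 0.993), SP100 and NLRC5, and those most like CXCL11 were CMPK2 (r = 0.992), SP100 and USP18. For CXCL9 they were NLRC5 (r = 0.986), DDX58 and SP100, for CCL5 SYTL3 (r = 0.998), FERMT3 and PRRX2, and for CXCL8 CAV2 (r = 0.994), CD274 and PRR5L. For CXCL1 they were CD83 (r = 0.972), ZSCAN16 and NFKBIA, and for CXCL3 IGFBP3 (r = 0.988), STX1A and COL7A1. For CXCL2, CCL2 and CCL20 the nearest genes were PLPP5 (r = 0.964), SPIN2B (r = 0.851) and SEH1L (r = 0.98). All these correlations share the same 12 libraries, 3 of which are the controls. Group means were not removed, so the values include the difference between GFP and TYRO3 that was known when the members were chosen.

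The other chemokine genes were mostly silent. Of 36 further ligands, 32 stayed below 1 TPM in every library and 19 had 0 in every library, among them CXCL12, CCL4, CCL7 and CCL8. Only CXCL16, CX3CL1, CCL22 and CCL28 passed the count filter, and 0 of these 4 were called in any comparison in edgeR, DESeq2 or limma. In edgeR 3.32% of all genes were called in either direction for the mean of the groups. CXCL16, a membrane-bound ligand of CXCR6, had 2.65 to 3.72 TPM with GFP and 4.28 to 6.55 TPM with TYRO3, and was the single gene of these with an unadjusted p under 0.05 for the mean of the groups (log2 difference 0.53 ± 0.20, edgeR adjusted p = 0.131). CX3CL1 (fractalkine) had 4.05 to 7.91 TPM with GFP and 3.41 to 8.21 TPM with TYRO3, and CCL28 9.69 to 15.5 and 10.4 to 15.5 TPM. CCL22 stayed at or below 0.492 TPM.

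Several receptors for the members were at or near 0 in these cells. CXCR3, CXCR1 and CCR2 were listed at 0 in every library, CXCR2 stayed at or below 0.148 TPM and CCR6 at or below 0.171 TPM. Of 22 receptor genes 3 passed the filter. CXCR4 had 0.095 to 1.01 TPM with GFP and 0.203 to 0.653 TPM with TYRO3, and CCR10 had 1.39 to 2.08 and 1.04 to 2.23 TPM. CXCR5 ranged from 0.0 to 0.481 TPM and from 0.0 to 5.43 TPM. For the mean of the groups 0 of the 3 were called by edgeR, DESeq2 or limma on the filtered genes, beside 3.32% of all genes in edgeR, and 0 had an unadjusted p under 0.05. The log2 difference of CXCR5 was 4.73 ± 2.31 there, and its unadjusted edgeR p was under 0.05 for ΔGS against GFP. Without the count filter edgeR called CXCR5 higher for the mean of the groups, beside 3.69% of all genes called in either direction.

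Of the 19 cytokines and mediators that are often induced with these chemokines, 14 passed the filter, and 4 were called higher and 0 lower for the mean of the TYRO3 groups, with a list median of 0.98 on the log2 scale. Beside them, 1.79% of all genes were called higher. This list and those below were chosen with earlier results of these data known, so their counts are a description. IL6, the pleiotropic inflammatory cytokine, had 1.09 to 2.69 TPM with GFP and 6.14 to 23.1 TPM with TYRO3 (log2 difference 1.91 ± 0.27, edgeR adjusted p = 0.0112). IL1A rose from 0.48 to 0.612 TPM to 0.585 to 3.6 TPM (1.60 ± 0.41, adjusted p = 0.0429), which is a low level in either group. IL24, a cytokine of the interleukin 10 family, rose by 1.07 ± 0.18 (adjusted p = 0.0143) and CSF1, the macrophage growth factor, by 0.90 ± 0.15 (adjusted p = 0.0143). With a term per experiment 10 were called, adding IL1B, IL11, LIF, MMP1, MMP3 and TNFSF10, beside 3.51% of all genes called higher. Without the GFP library of experiment 1, 0 were called in the fit without that term and 4 in the fit with it (CSF1, IL1B, IL24 and IL6). The shares of all genes called in either direction were 0.00653% and 2.53%. When the GFP library of experiment 3 was left out, 2 were called (CSF1 and IL6), beside 1.54% of all genes. MMP1, a collagenase gene and the most abundant of the list, had 296.0 to 630.0 TPM with GFP and 405.0 to 2020.0 TPM with TYRO3 (1.06 ± 0.33, adjusted p = 0.0776). SOD2 and ICAM1, which many inflammatory signals raise, had differences of 0.06 ± 0.07 and 0.16 ± 0.08. TNF stayed at or below 0.0329 TPM.

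All 21 genes of the NF-kB list passed the filter, and 7 were called higher and 0 lower, with a list median of 0.11. Those called were BIRC3, NFKB2, RELB, NFKBIA, BCL3, MAP3K14 and TNIP3, and the same 7 were called with a term per experiment. The shares of all genes called higher were 1.79% and, with the term, 3.51%. BIRC3, a ubiquitin ligase gene induced by NF-kB, rose from 3.24 to 4.49 TPM to 5.99 to 12.5 TPM (1.26 ± 0.22, edgeR adjusted p = 0.0146). NFKB2 and RELB, which code for the subunits of the non-canonical branch, rose by 0.61 ± 0.12 (adjusted p = 0.0178) and 0.70 ± 0.14 (adjusted p = 0.0196). NFKBIA, the inhibitor that NF-kB itself induces, rose from 25.4 to 26.8 TPM to 34.2 to 59.6 TPM (0.60 ± 0.12, adjusted p = 0.0197). RELA, NFKB1 and CHUK differed by 0.18 ± 0.08, 0.05 ± 0.14 and -0.06 ± 0.09, and TNFAIP3, another feedback inhibitor, by -0.01 ± 0.20. Without the GFP library of experiment 1, 0 were called in the fit without a term per experiment and 3 in the fit with it (BIRC3, RELB and TNIP3). Beside these, 0.00653% and 2.53% of all genes were called in either direction. When the GFP library of experiment 2 was left out, 1 was called (TNIP3), beside 1.86% of all genes. Without the ΔGS (1.81%) or the ΔADAM (1.47%) library of experiment 1, 4 were called.

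Of the 24 interferon pathway genes listed for their place upstream of CXCL9, CXCL10 and CXCL11, 19 passed the filter, and 2 were called higher and 0 lower, with a list median of 0.14. Beside them, 1.79% of all genes were called higher. IRF1, a transcription factor that binds these promoters, rose from 5.2 to 8.57 TPM to 13.0 to 28.9 TPM (1.60 ± 0.23, edgeR adjusted p = 0.0112). TLR3, the endosomal receptor for double-stranded RNA, rose from 1.45 to 2.49 TPM to 1.87 to 9.86 TPM (1.73 ± 0.32, adjusted p = 0.0161). With a term per experiment 7 were called, with and without the GFP library of experiment 1, among them IRF1, TLR3, STAT2, IRF9, IFIH1 and DDX58. The shares of all genes called in either direction were 5.7% and 2.53%. Without that library and without the term, 0 were called, beside 0.00653% of all genes. In the fit without the term, 1 was called without the GFP library of experiment 3 (IRF1, beside 1.54%) and 4 without the ΔGS library of experiment 3 (beside 3.98%). DDX58, which codes for the RNA sensor RIG-I, had 13.0 to 29.2 TPM with GFP and 25.2 to 83.3 TPM with TYRO3 (1.22 ± 0.39, adjusted p = 0.0836, and 0.000541 with the term). IRF3 and TYK2 differed by 0.12 ± 0.10 and -0.07 ± 0.10. The ligands were at the margin of detection, since IFNG had 0 in every library and IFNB1 had at most 0.419 TPM with GFP and 0.154 to 2.0 TPM with TYRO3 (1.37 ± 0.75, adjusted p = 0.293). IFNL1, IFNL2 and IFNL3 did not pass the filter. IFNL1 had at most 0.0664 TPM with GFP and 0.0847 to 0.815 TPM with TYRO3. IFNL2 had 0.0 TPM with GFP and 0.0 to 0.881 TPM with TYRO3, and IFNL3 at most 0.0819 TPM and 0.0 to 0.531 TPM.

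**Figure D5:**
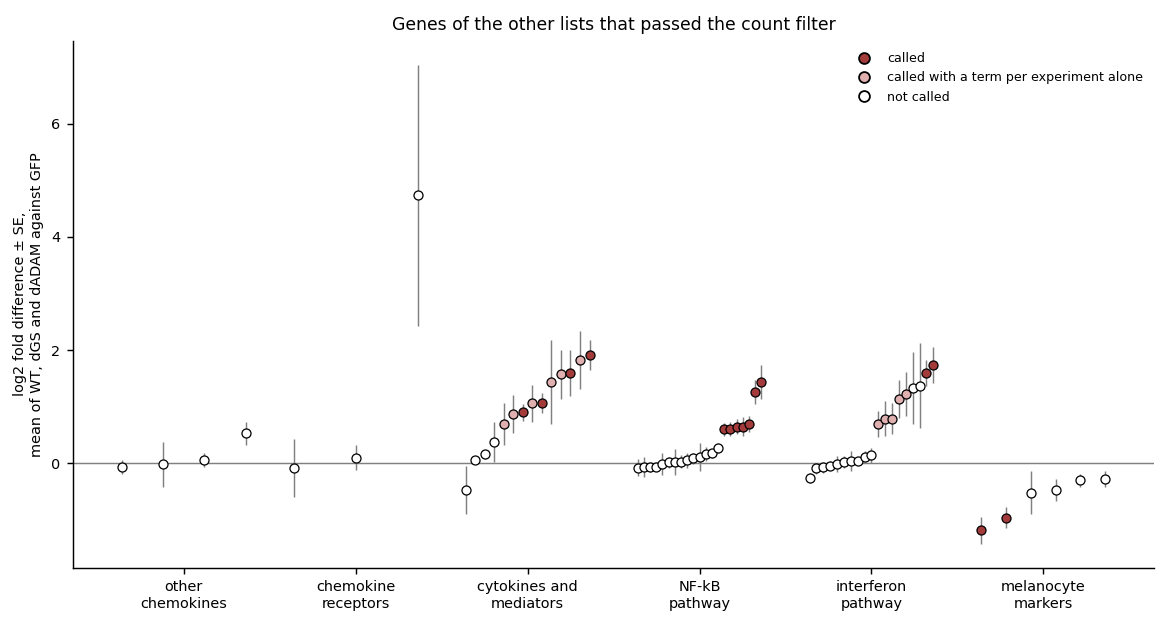
Fitted log2 fold difference, with its standard error, of the mean of WT, ΔGS and ΔADAM from GFP for the genes of 6 lists that passed the count filter. Each point is 1 gene, and its fill shows whether it was called. The called genes of the cytokine, NF-kB and interferon lists all lie above 0, while DCT and MITF among the melanocyte markers lie below.

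Of the 6 melanocyte markers, 2 were called lower and 0 higher for the mean of the TYRO3 groups, beside 3.32% of all genes called in either direction. MITF, the lineage transcription factor, fell from 127.0 to 145.0 TPM to 43.2 to 120.0 TPM (log2 difference -0.96 ± 0.18, edgeR adjusted p = 0.0162). DCT, a pigment enzyme gene, fell from 112.0 to 164.0 TPM to 29.5 to 149.0 TPM (-1.18 ± 0.24, adjusted p = 0.0204). Without the GFP library of experiment 1 neither was called, with (2.53% of all genes) or without (0.00653%) a term per experiment. MITF alone was called without the GFP library of experiment 3 (1.54%) or the ΔADAM library of experiment 1 (1.47%). SOX10, TYR, PMEL and MLANA differed by -0.30 ± 0.12 (adjusted p = 0.149), -0.47 ± 0.20 (adjusted p = 0.166), -0.28 ± 0.14 (adjusted p = 0.259) and -0.52 ± 0.38 (adjusted p = 0.445). The fibroblast marker LUM fell by 0.66 ± 0.14 on the log2 scale (adjusted p = 0.0219), and it was not called without any 1 of the GFP, ΔGS and ΔADAM libraries of experiment 1 or the GFP library of experiment 2. The other fibroblast markers went in opposite directions and were not called in this fit. DCN differed by -1.22 ± 0.40 (edgeR adjusted p = 0.087) and COL1A1 by 0.43 ± 0.40 (edgeR adjusted p = 0.567). No leukocyte, endothelial or epithelial marker was called by edgeR or DESeq2, with 0 of 6 tested at an unadjusted p under 0.05. The part of these genes in the chemokine levels was not tested.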

How the data were processed

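Total RNA of the 12 cell line libraries was sequenced after stranded mRNA preparation. According to the study's methods, the authors trimmed reads with PRINSEQ and Trimmomatic and quantified Ensembl 96 transcripts (GRCh38) with kallisto; the submitters' processing notes name Trimmomatic 0.33 and kallisto 0.46.0. The deposited files hold estimated counts and TPM values per transcript, which the authors computed before the batch correction and normalization described in the methods. The sample labels name a GFP plasmid as control, and that name is used here. The authors' own comparisons were not used.

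Here estimated counts and TPM were summed per gene through GENCODE 29, which placed 169797 of 188753 transcripts, and the sums were rounded to whole counts. CPM are relative to the total of each library. The quasi-likelihood test of edgeR 4.0.16 (R 4.3.3) was run with TMM normalization and filterByExpr (minimum count 10, minimum total 15) on 15090 genes. Groups and a batch term, experiment 1 set against the other experiments as in the study's methods, entered the model. P-values were adjusted by the Benjamini-Hochberg method within each of 6 comparisons, and a gene was called at a fold over 1.5 and an adjusted p of at most 0.05. The number in the labels marks the experiment and pairs the samples: deviations from the group means of libraries of the same experiment correlated at 0.18 to 0.71 in all 18 pairs. The fit with a term per experiment (replicate block) is therefore given beside the other. Labels do not say whether cultures were separate beyond the experiment. With the batch term alone, p-values are set against the spread between libraries of a group that is left after that term. With a term per experiment, they are set against how unevenly the group differences repeated between experiments. Scripts were tested on simulated data.

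The members and lists were chosen with earlier results of these data known. All 10 members are named. From each other list the 4 genes highest in TPM and the 4 with the smallest p for the mean of the TYRO3 groups are named, apart from some cell type markers, whose lists are given by their sums. Other list genes named were chosen after their values were seen. A few list genes are not reported here. The genes most like a member were the 3 with the highest correlation. Alternatives were DESeq2 1.42.0, other size factors, limma 3.58.1 on log2(TPM + 1) and log2(TPM + 0.1), other filters, no batch term, a replicate block, experiments 2 and 3 alone, only the groups compared, no fold threshold, and each library left out. Promoter sequences are those of RefSeq, GRCh38.p14.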

Additional observations from a re-analysis of the deposited data

How the results depend on the processing

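Members called are given in the order WT, ΔGS, ΔADAM and the mean of the groups against GFP, where the fit of the report gives 0, 2, 4 and 6. Where CXCL9 is among the members called, the limit on it given above holds. The replicate block gave 5, 7, 7 and 7, and DESeq2 5, 6, 6 and 6. Without a filter the counts were 6, 7, 7 and 7, and with at least 10 counts in every library 0, 3, 2 and 3. The latter filter removes CXCL9, CXCL2, CCL2 and CCL20. It also removes CXCL10 and CXCL3, which had 5 and 8 counts in the shallow GFP library of experiment 1. Limma gave 0, 0, 0 and 6 with a pseudocount of 1 and 0, 0, 1 and 6 with 0.1. A fit of only the groups compared gave 0, 0, 0 and 6. No batch term, or experiments 2 and 3 alone, gave 0 throughout. With each library left out in turn, the counts ranged from 0 to 0, 0 to 3, 0 to 5 and 0 to 6, and the lowest came without the GFP library of experiment 1. The latter 2 settings were chosen after seeing the data: the replicate block without that library gave 4, 6, 5 and 6, and the replicate block in experiments 2 and 3 alone 2, 4, 5 and 6. Beyond the experiments left out or fewer genes tested, the cause of these shifts was not tested. Other size factors and no fold threshold left all counts as they were. Between TYRO3 forms 0 members were called under every setting run. No log2 difference of a called member changed sign.

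Over all genes, calls in the same order were 6, 69, 171 and 501, against 357, 710, 784 and 860 with the replicate block, 376, 608, 674 and 752 with DESeq2, 565, 768, 881 and 931 without a filter and 3, 4, 5 and 19 without a batch term. Limma gave 2, 1, 43 and 359 with a pseudocount of 1, and a fit of only the groups compared 1, 1, 11 and 501. Without the GFP library of experiment 1, and in experiments 2 and 3 alone, 1 gene was called in each comparison with GFP. The depth of the GFP library of experiment 1 limits CXCL9, CCL2, CXCL2 and CCL20 most.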
